A study of Populus ussuriensis with 12 samples.

Results

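The genes described here are 9 identifiers assigned to the early flavonoid enzymes, of 35907 in the files. They were taken by identifier: 6 chalcone synthases (CHS), 1 chalcone isomerase (CHI), 1 flavanone 3-hydroxylase (F3H) and 1 flavonoid 3'-hydroxylase (F3'H). The enzyme names come from the gene list that defined the set, which was chosen with earlier results of these data known. The deposited files carry identifiers alone, and no annotation was at hand to check the names. The sequenced RNA came from whole roots of in vitro plants of the poplar Populus ussuriensis. The 4 groups of 3 libraries were PuC3H35 overexpressor (OE) roots on 6% PEG6000, wild-type (WT) roots on 6% PEG6000, OE roots on control medium and WT roots on control medium. All plants were 7 days old at transfer and spent 7 days on the test medium. PuC3H35 is a CCCH zinc finger protein, and PEG6000 is a polyethylene glycol that lowers the water potential of the medium to mimic drought. The labels give neither the promoter of the transgene nor the number of transgenic lines, nor whether libraries came from separate plants. Library numbers are those of the labels, 1, 3 and 4 for OE on PEG, 1, 2 and 5 for OE on control medium and 1, 2 and 3 for both WT groups, and values follow that order. PuC3H35 expression could not be read, since no identifier is paired with its name, and the transgene and the plants carrying it cannot be told apart.

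CHS opens the flavonoid pathway by joining a phenylpropanoid CoA ester with malonyl-CoA to form a chalcone. CHI closes the chalcone to a flavanone, F3H turns flavanones into dihydroflavonols, and F3'H adds a hydroxyl group to the B ring. Dihydroflavonols feed the synthesis of flavonols, anthocyanins and proanthocyanidins, the condensed tannins for which poplar tissues are known.

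Levels are given as FPKM, which divides the reads of a gene by its length and by the total of its library, so that genes can be compared per length. Library totals recovered from the steps of the values ran from 10568855 to 12055741 reads. Genes were tested where 3 or more libraries reached 1 FPKM, and all 9 were among the 24976 genes tested. By mean FPKM over the 12 libraries the CHI gene ranked 70 among those and the leading CHS gene, Potri.014G145100.v3.1, ranked 109, whereas the weakest CHS gene, Potri.003G176700.v3.1, ranked 18985. "Called" means an adjusted p under 0.05 (limma with Benjamini-Hochberg adjustment over all 24976 genes), and log2 changes are differences of log2(FPKM + 1), which understate the change of weak genes. Intervals are 95% intervals of limma, not adjusted for the number of genes. In bulk roots, fewer cells of a type and less RNA per cell cannot be told apart. How far the spread behind the p-values is biological is unknown, as replicate libraries may be technical.

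All 9 early flavonoid genes were called higher in OE than in WT roots on PEG, by 0.87 to 1.53 on the log2 scale, against 9.19% of all tested genes called higher. On control medium 4 of the 9 were called higher in OE roots, against 12.8% of tested genes: 2 CHS genes, CHI and F3H. In WT roots 6 of the 9 genes were called lower on PEG than on control medium, by 0.54 to 1.09 on the log2 scale. Over all tested genes 16.6% were called lower. Limma called none of the 9 for PEG in OE roots, against 2.08% of tested genes called in either direction. Of the 9 genes 1 had an unadjusted p under 0.05, and limma-voom called 0, against 471 of all tested genes. The interaction, which tests whether PEG acted differently in OE and WT roots, called none of the 9 with limma. Over all tested genes 7.5% were called in either direction. Of the 9 genes, 5 had an unadjusted p under 0.05. Limma-voom called 1 of the 9, against 1797 of all tested genes. The share of all tested genes with an unadjusted p under 0.05 was not determined in these comparisons. The member counts at that rule thus have no background beside them.

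**Figure D1:**
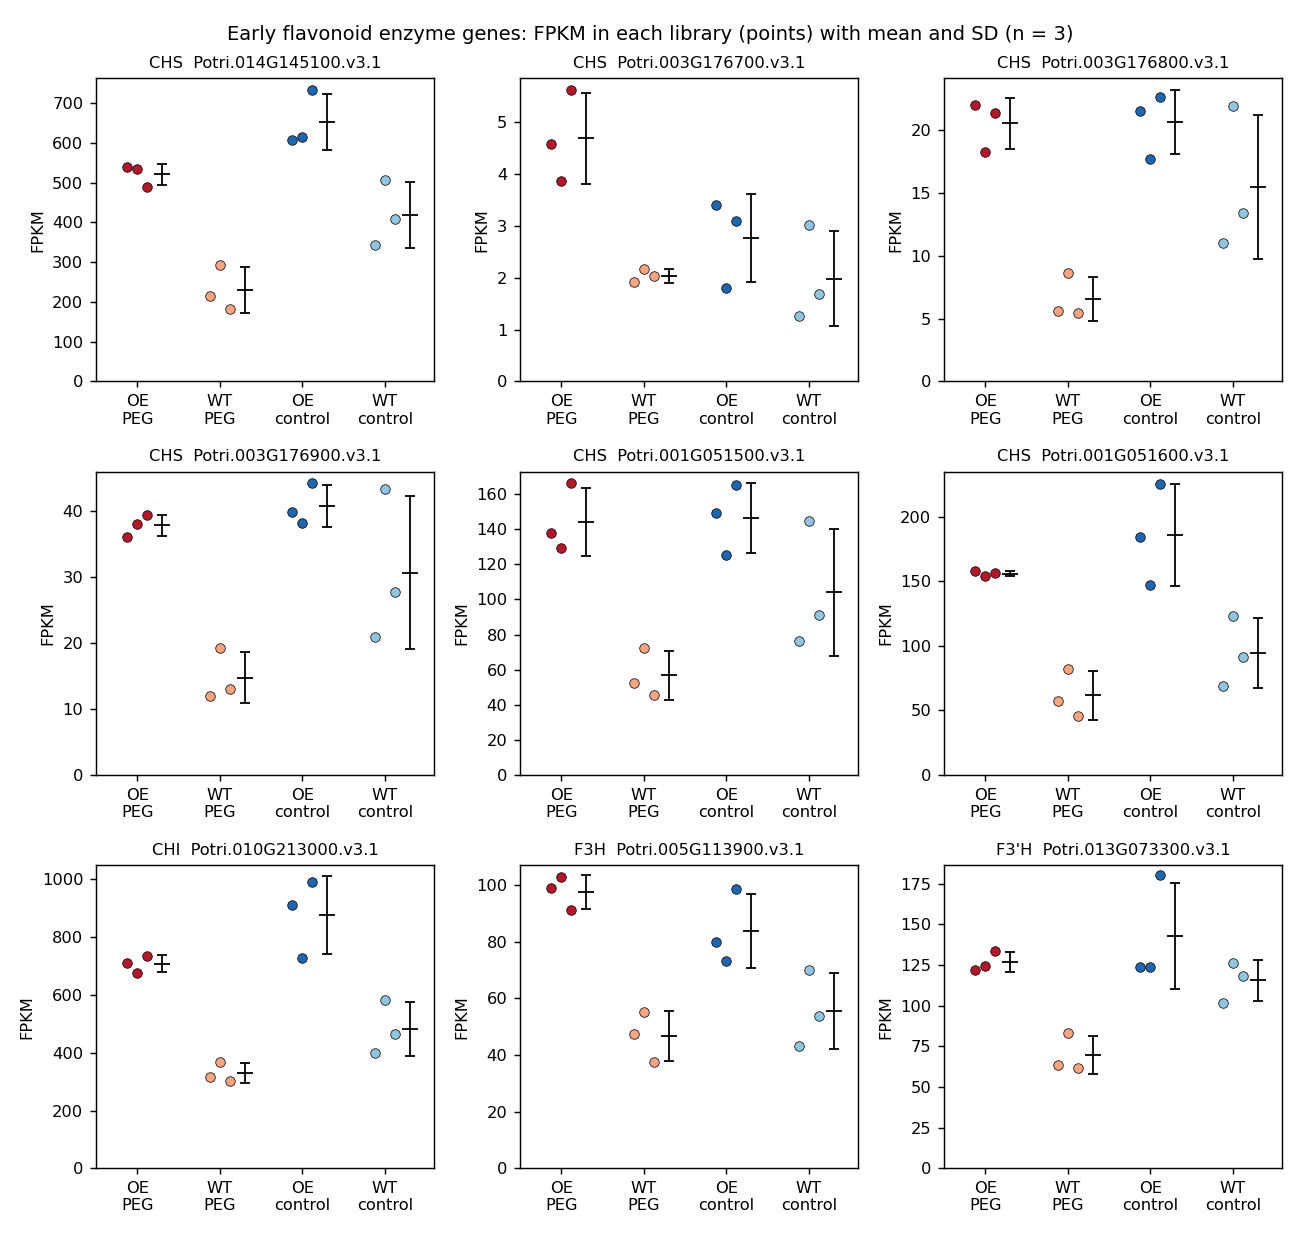
FPKM (y axis, from 0, own scale in each panel) of the 9 genes in each of the 12 libraries by group (x axis); points are libraries in the order of their replicate numbers, and the bar beside them is mean ± SD (n = 3). In all 9 panels the 3 OE libraries on PEG lie above the 3 WT libraries on PEG.

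Potri.014G145100.v3.1, the CHS gene with the highest level in every group, had 538, 533 and 489 FPKM in OE roots on PEG and 216, 293 and 181 FPKM in WT roots on PEG. On control medium it had 608, 615 and 734 FPKM in OE roots and 342, 507 and 408 FPKM in WT roots. The genotypes did not overlap on either medium, and within each genotype the media did not overlap either. Its log2 change in OE against WT roots was 1.20 on PEG (SE 0.17, limma adjusted p 0.00101), with a ratio of means of 2.26, and 0.65 on control medium (SE 0.17, limma adjusted p 0.0219). In WT roots it fell by 0.87 on PEG (SE 0.17, limma adjusted p 0.00259). In OE roots its PEG change was -0.32, with an interval from -0.70 to 0.06 (limma adjusted p 0.481). The call on control medium was lost without library 1 (limma adjusted p 0.0684) or 3 (0.0598) of WT on control medium, or library 5 of OE on control medium (0.0758).

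The neighbouring identifiers Potri.001G051500.v3.1 and Potri.001G051600.v3.1 were the CHS genes next in level. Potri.001G051500.v3.1 had 138, 129 and 166 FPKM in OE roots on PEG and 52.2, 72.4 and 45.4 FPKM in WT roots on PEG. It had 149, 125 and 165 FPKM in OE roots on control medium and 76.2, 145 and 91.3 FPKM in WT roots on control medium. On PEG the genotypes were apart, whereas on control medium library 2 of WT lay within the range of OE. The OE level was higher on PEG (log2 change 1.35, SE 0.22, limma adjusted p 0.00228) and was not called on control medium (0.53, limma adjusted p 0.11). In WT roots the gene fell by 0.84 on PEG (SE 0.22, limma adjusted p 0.0138), a call lost without library 1 (0.0519) or 3 (0.0651) of WT on PEG.

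Potri.001G051600.v3.1 had 158, 154 and 157 FPKM in OE roots on PEG and 57.0, 82.3 and 45.7 FPKM in WT roots on PEG. Without PEG it had 185, 147 and 226 FPKM in OE roots and 69.1, 123 and 91.7 FPKM in WT roots. Here the genotypes were apart on both media. It was the CHS gene with the largest genotype difference on control medium, 0.98 on the log2 scale (SE 0.23, limma adjusted p 0.0119), and it was also higher on PEG (1.37, SE 0.23, limma adjusted p 0.00264). Its PEG change in WT roots was -0.61 and was not called (limma adjusted p 0.0663). That change was called without library 1 of WT on control medium (limma adjusted p 0.0223) or library 2 of WT on PEG (0.0178).

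The 3 CHS genes of the run Potri.003G176700.v3.1, Potri.003G176800.v3.1 and Potri.003G176900.v3.1 were weaker. Potri.003G176900.v3.1 had 36.1, 38.1 and 39.4 FPKM in OE roots on PEG and 11.98, 19.2 and 13.04 FPKM in WT roots on PEG. On control medium it had 39.8, 38.2 and 44.3 FPKM in OE roots and 20.9, 43.4 and 27.7 FPKM in WT roots, where library 2 of WT again reached the OE range. It was higher in OE roots on PEG by 1.33 on the log2 scale (SE 0.22, limma adjusted p 0.00228) and fell by 0.97 on PEG in WT roots (SE 0.22, limma adjusted p 0.00539).

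Potri.003G176800.v3.1 showed the largest differences of the 9 genes in both of these comparisons. It had 22.0, 18.3 and 21.3 FPKM in OE roots on PEG and 5.60, 8.62 and 5.47 FPKM in WT roots on PEG, a gap of 1.53 on the log2 scale (SE 0.22, limma adjusted p 0.000925). On control medium it had 21.5, 17.7 and 22.7 FPKM in OE roots and 11.05, 21.9 and 13.4 FPKM in WT roots, with overlapping ranges. In WT roots it fell by 1.09 on PEG (SE 0.22, limma adjusted p 0.00258). In OE roots the PEG change was near 0, with an interval from -0.48 to 0.47.

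Potri.003G176700.v3.1 departed from the other CHS genes. It had 4.57, 3.88 and 5.62 FPKM in OE roots on PEG, 1.91, 2.18 and 2.03 FPKM in WT roots on PEG, 3.40, 1.79 and 3.09 FPKM in OE roots on control medium and 1.26, 3.02 and 1.68 FPKM in WT roots on control medium. Only the OE libraries on PEG stood apart, above the libraries of each of the other groups. The gene was called higher in OE roots on PEG (log2 change 0.89, SE 0.22, limma adjusted p 0.0192). Its PEG change in WT roots was 0.07, with an interval from -0.41 to 0.55, and in OE roots 0.61, with an interval from 0.13 to 1.09 (limma adjusted p 0.235). It rests on 34 to 144 reads per library, and the genotype call on PEG was lost without library 1 (limma adjusted p 0.0722) or 3 (0.0658) of WT on PEG or library 4 of OE on PEG (0.063).

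CHI, represented by Potri.010G213000.v3.1, was the most abundant of the 9 transcripts. It had 711, 677 and 735 FPKM in OE roots on PEG and 316, 367 and 302 FPKM in WT roots on PEG. Without PEG, CHI had 911, 727 and 991 FPKM in OE roots and 400.3, 584 and 463 FPKM in WT roots. The genotypes were apart on both media. The OE level was higher by 1.11 on PEG (SE 0.15, limma adjusted p 0.000664) and by 0.87 on control medium (SE 0.15, limma adjusted p 0.00255), and both calls held in all 19 alternative settings tried. In WT roots CHI fell by 0.54 on PEG (SE 0.15, limma adjusted p 0.0168), and this call was lost without library 2 of WT on control medium (0.0681) or library 1 (0.0588) or 3 (0.0702) of WT on PEG.

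F3H, Potri.005G113900.v3.1, had 99.0, 103 and 91.2 FPKM in OE roots on PEG and 47.4, 55.0 and 37.7 FPKM in WT roots on PEG. The values of F3H on control medium were 79.9, 73.2 and 98.5 FPKM in OE roots and 43.2, 70.0 and 53.7 FPKM in WT roots. It was higher in OE roots by 1.06 on PEG (SE 0.18, limma adjusted p 0.00236) and by 0.60 on control medium (SE 0.18, limma adjusted p 0.0322). The call on control medium was lost with median-ratio scaling (limma adjusted p 0.0744), with only the 6 libraries compared (0.065), without library 1 (0.101) or 3 (0.0809) of WT on control medium, and without library 1 (0.0629) or 5 (0.112) of OE on control medium. F3H was not called for PEG in either genotype: its log2 change was -0.24 in WT roots (interval from -0.62 to 0.15) and 0.23 in OE roots (interval from -0.16 to 0.61).

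F3'H, Potri.013G073300.v3.1, had 122, 124 and 134 FPKM in OE roots on PEG and 63.8, 83.1 and 61.8 FPKM in WT roots on PEG. On control medium it had 124, 124 and 180.1 FPKM in OE roots and 102, 126 and 118 FPKM in WT roots. The genotypes were apart on PEG and overlapped on control medium, where library 5 of OE stood high. F3'H was higher in OE roots on PEG by 0.87 on the log2 scale (SE 0.15, limma adjusted p 0.00365), while on control medium the difference of 0.28 was not called (limma adjusted p 0.211). In WT roots it fell by 0.73 on PEG (SE 0.15, limma adjusted p 0.00367), and this call held in all 19 alternative settings.

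**Figure D2:**
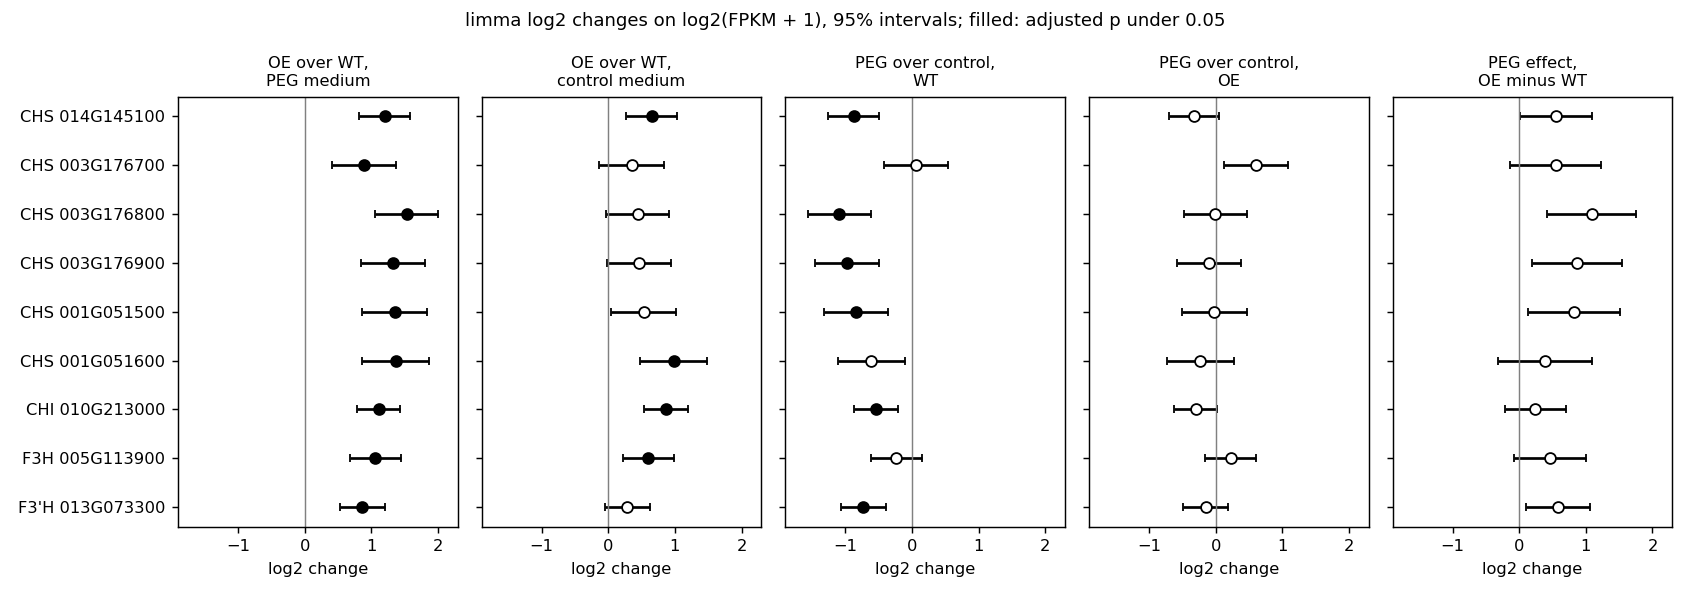
Log2 changes (x axis) of the 9 genes (rows) in the 5 comparisons, with 95% intervals from limma; filled points have an adjusted p under 0.05. All 9 points are filled for OE over WT on PEG, 4 for OE over WT on control medium, 6 for PEG over control in WT, and none in the last 2 panels.

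On PEG the OE and WT libraries did not overlap in any of the 9 genes, where 22.6% of tested genes lay wholly higher in OE. The median log2 change of the 9 was 1.20, beside 0.08 for all tested genes. On control medium 4 of 9 genes lay wholly higher in OE, against 24.3% of tested genes, and these were the 4 called. Here the median was 0.53 beside 0.08. CHI, F3H, Potri.014G145100.v3.1 and Potri.001G051600.v3.1 were thus called higher on both media, as were 3.42% of tested genes. These genotype comparisons share no library. Their p-values are still not independent, since a single model over the 12 libraries gave both the same estimate of spread. The number called on control medium depended on single libraries. It was 2 without library 1 or 3 of WT on control medium, where 4623 and 3550 of all tested genes were called in either direction, against 5080 with all libraries. It was also 2 without library 5 of OE on control medium, with 3563 genes called in all. Without library 2 of WT on control medium it was 7, while the count over all genes was 3118.

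In WT roots the 6 genes called lower on PEG were also the 6 of 9 whose libraries did not overlap between the media, against 25.3% of tested genes that lay wholly lower. The median of the 9 was -0.73 beside -0.04. This comparison shares the WT libraries on PEG with the genotype comparison on that medium, so the values of each are given side by side and not as independent results. In OE roots the median change on PEG was -0.10 beside -0.05. The gene with an unadjusted p under 0.05 was Potri.003G176700.v3.1. Of the 9 genes, 2 did not overlap between the media in OE roots: Potri.014G145100.v3.1 was lower on PEG in every library, as were 10.7% of tested genes, and Potri.003G176700.v3.1 was higher in every library, as were 6.45%.

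The difference of the PEG responses, OE minus WT, was above 0 in 9 of 9 genes, from 0.24 in CHI to 1.09 in Potri.003G176800.v3.1, with a median of 0.55 beside -0.01 for all tested genes. The gene called by limma-voom was Potri.003G176800.v3.1 (adjusted p 0.041). For it limma gave an adjusted p of 0.0527 and an interval from 0.42 to 1.76. It was called without library 1 of WT on control medium (limma adjusted p 0.0233) or library 2 of WT on PEG (0.0306). Without library 1 of WT on control medium Potri.003G176900.v3.1 was called too (0.0306), and F3'H was called without library 5 of OE on control medium (0.0344). For CHI the interval ran from -0.22 to 0.70, for F3H from -0.08 to 1.01 and for F3'H from 0.11 to 1.06.

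By group mean, 7 of the 9 genes had the order OE on control medium, OE on PEG, WT on control medium and WT on PEG, from high to low. F3H and Potri.003G176700.v3.1 had OE on PEG highest, and Potri.003G176700.v3.1 had WT on control medium lowest. The OE groups, which were neighbours in each order, overlapped in 7 of 9 genes. OE on PEG and WT on control medium overlapped in 5 of 9. The other 4, CHI, F3H, Potri.001G051600.v3.1 and Potri.003G176700.v3.1, were higher in every OE library on PEG than in any WT library on control medium, as were 21.4% of tested genes.

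Summed over the 6 CHS genes, the level was 897, 877 and 879 FPKM in OE roots on PEG and 344, 477 and 293 FPKM in WT roots on PEG. It was 1007, 946 and 1195 FPKM in OE roots on control medium and 521, 843 and 634 FPKM in WT roots on control medium. The groups were apart in both genotype pairs and in both pairs of media. The means were 884 ± 11.1 and 372 ± 95.1 FPKM in OE and WT roots on PEG, and 1049 ± 130 and 666 ± 164 FPKM in OE and WT roots on control medium (SD, n = 3 each). Mean CHS transcript in OE roots was thus 2.38 times that of WT on PEG and 1.58 times on control medium. On PEG it was 0.558 times the control level in WT roots and 0.843 times in OE roots. No test was made on this sum.

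Potri.014G145100.v3.1 made up most of the CHS sum in every group, with 58.9% ± 2.76 in OE on PEG, 61.9% ± 0.659 in WT on PEG, 62.3% ± 2.45 in OE on control medium and 63.4% ± 2.93 in WT on control medium (SD, n = 3). Potri.001G051500.v3.1 and Potri.001G051600.v3.1 each held 13.2% to 18.9% of the sum in every library, and Potri.003G176700.v3.1 at most 0.691%. The share of Potri.001G051600.v3.1 was 17.6% ± 1.78 in OE and 14.1% ± 0.746 in WT roots on control medium, and the libraries of these groups did not overlap. On PEG it was 17.7% ± 0.142 in OE and 16.5% ± 0.826 in WT roots, also apart. Every WT library on PEG also lay above every WT library on control medium. Shares of Potri.014G145100.v3.1 lay apart between genotypes on PEG, and those of Potri.003G176700.v3.1 between media in both genotypes. Those of Potri.003G176800.v3.1 lay apart between genotypes on PEG and between media in WT roots. No test was made on shares. Recovered gene lengths of the 6 CHS genes ran from 1601 to 2274 bases. If copies are near-identical in sequence, the counting may have divided their reads in ways not known here, and single copies are then less certain than the sum.

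**Figure D3:**
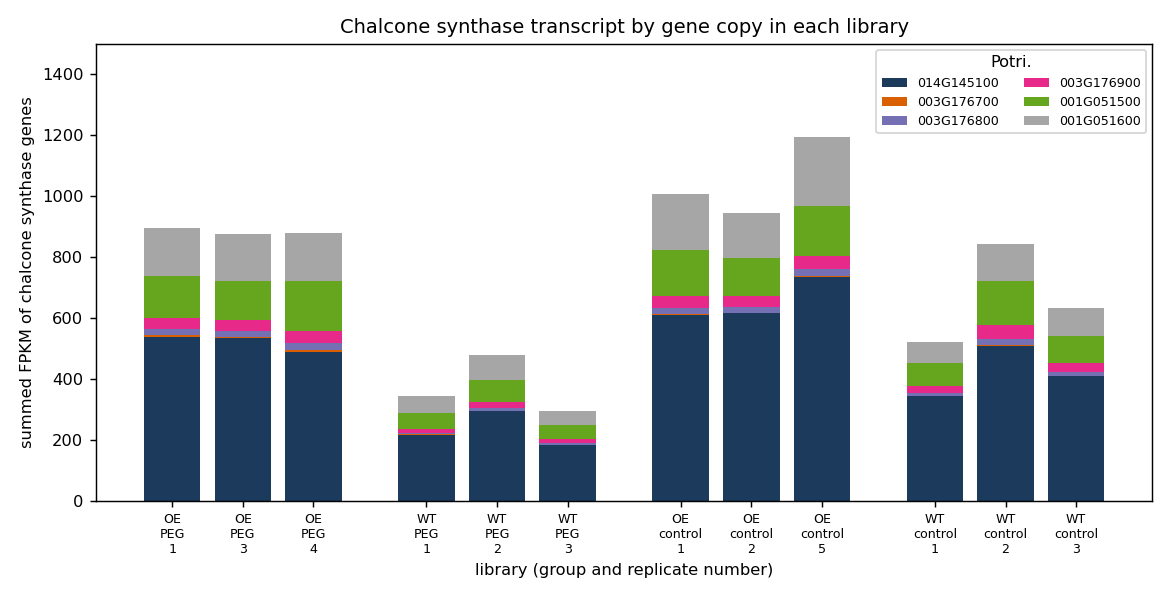
Summed FPKM of the 6 CHS genes (y axis, from 0) in each of the 12 libraries (x axis, group and replicate number), stacked by gene. The sum runs from 293 FPKM in library 3 of WT on PEG to 1195 FPKM in library 5 of OE on control medium, and Potri.014G145100.v3.1 is the largest part of each bar.

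The CHS sum ran from 877 to 897 FPKM in OE roots on PEG and from 293 to 477 FPKM in WT roots on PEG. On control medium it ran from 946 to 1195 FPKM in OE roots and from 521 to 843 FPKM in WT roots. The sums of OE on PEG thus lay closest together. In that group library 4 had the lowest value of Potri.014G145100.v3.1 (489 FPKM) and the highest of Potri.001G051500.v3.1 (166 FPKM). Library 2 was the highest WT library in all 9 genes on both media. For Potri.014G145100.v3.1 the coefficient of variation was 5.18% in OE and 24.8% in WT on PEG, and 10.8% in OE and 19.8% in WT on control medium. Counting error alone gives 1.53% and 1.10% in WT on PEG and on control medium. For Potri.003G176700.v3.1 the order on PEG was the other way, 18.7% in OE and 6.43% in WT, and counting error alone gives 9.04% to 13.9%.

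The members varied together. Over the 12 libraries the 28 pairs without Potri.003G176700.v3.1 had Pearson correlations of log2(FPKM + 1) from 0.808 to 0.988 (median 0.942) and Spearman correlations from 0.657 to 0.958. The 8 pairs with that gene ran from 0.481 to 0.811. After the 4 group means were removed, the 28 pairs still had Pearson correlations from 0.688 to 0.959 (median 0.856), so the genes also moved together among libraries of a group. These values are descriptive, since all genes share the libraries and their depth. Correlations between other pairs of tested genes were not determined, so no background stands beside them.

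**Figure D4:**
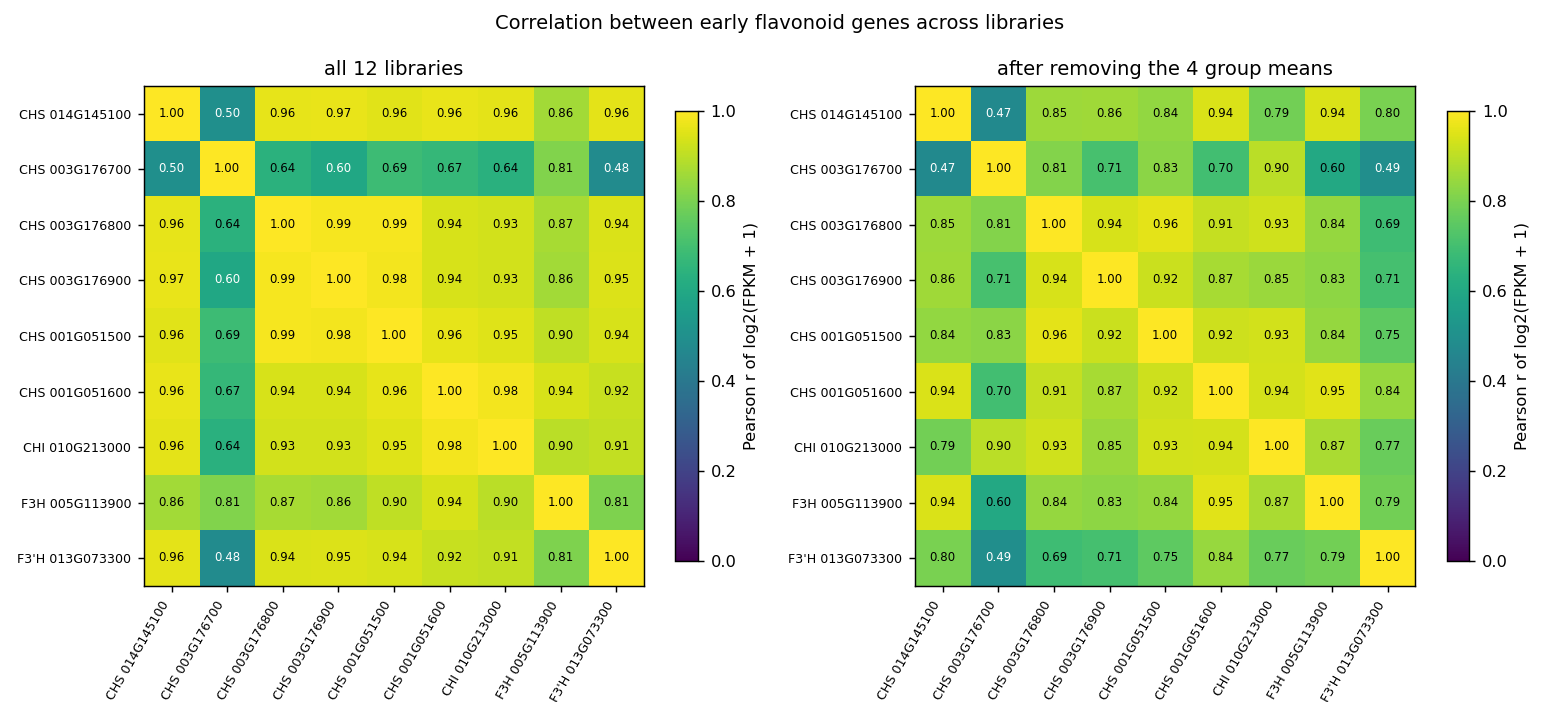
Pearson correlations of log2(FPKM + 1) between the 9 genes over 12 libraries, as deposited (left) and after the 4 group means were removed (right), on a colour scale from 0 to 1. The row of Potri.003G176700.v3.1 runs from 0.481 to 0.811 on the left, where the other 28 pairs run from 0.808 to 0.988.

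The genes most like the 9 members in pattern were sought among 17036 other tested genes whose highest group mean reached 5 FPKM. By Pearson correlation with the mean standardised profile of the 9 members over the 12 libraries, the nearest were Potri.019G057800.v3.1 (0.991), Potri.014G019200.v3.1 (0.983), Potri.001G113100.v3.1 (0.978), Potri.010G035500.v3.1 (0.976) and Potri.014G020900.v3.1 (0.974). The Spearman values of these 5 ran from 0.902 to 0.986. Of all 24967 tested genes outside the 9, 1036 had a Pearson correlation of at least 0.8 with this mean profile. Potri.019G057800.v3.1 averaged 469 ± 27.6 and 163 ± 43.1 FPKM in OE and WT roots on PEG, and 511 ± 64.5 and 272 ± 88.7 FPKM in OE and WT roots on control medium (SD, n = 3 each). Taken alone, Potri.014G145100.v3.1 was most like Potri.008G116500.v3.1 (0.995). For Potri.003G176800.v3.1, Potri.003G176900.v3.1 and Potri.001G051500.v3.1 the nearest gene was Potri.002G033600.v3.1 in each case (0.982 to 0.987). Potri.001G113100.v3.1, Potri.008G116500.v3.1 and Potri.002G033600.v3.1 belong to the list described next. For the remaining members the nearest gene was not on that list. It was Potri.019G057800.v3.1 for Potri.001G051600.v3.1 (0.991), Potri.004G057700.v3.1 for CHI (0.990) and Potri.010G035500.v3.1 for F3H (0.970). For F3'H it was Potri.006G110800.v3.1 (0.973), and for Potri.003G176700.v3.1 it was Potri.005G002100.v3.1 (0.940).

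A list of 17 further identifiers, meant to cover the steps before CHS and after F3H, was described beside the members. It was written from general knowledge of poplar genes, with no source or annotation at hand to check it, so some identifiers may be wrong. Earlier results of these data were known when it was written, so it is not an independent list. The counts are therefore counts over these identifiers, which are given without a role, and not over a verified pathway. Of the 17, 10 were called higher and 1 lower in OE roots on PEG, against 9.19% and 5.3% of tested genes. On control medium 6 were higher and 1 lower, against 12.8% and 7.56%. The gene with the largest rise in both comparisons was Potri.015G050200.v3.1, with 55.5 ± 6.19 and 12.3 ± 4.78 FPKM in OE and WT roots on PEG and 71.4 ± 8.95 and 18.0 ± 1.41 FPKM in OE and WT roots on control medium (SD, n = 3 each). Its log2 changes were 2.14 on PEG (SE 0.21, limma adjusted p 8.5e-05) and 1.93 on control medium (SE 0.21, limma adjusted p 0.000193). The only gene of the list called lower was Potri.001G036900.v3.1, by 0.67 on PEG and 0.62 on control medium (limma adjusted p 0.0112 and 0.013). On control medium its call was lost without library 2 of WT (0.0539) or library 1 of OE (0.0508).

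In WT roots 8 of the 17 were called lower and 4 higher on PEG, against 16.6% and 12% of tested genes. The largest fall was in Potri.010G129800.v3.1, with 15.1 ± 3.77 FPKM on PEG and 50.7 ± 14.4 FPKM on control medium (log2 change -1.67, SE 0.21, limma adjusted p 9.87e-05). The largest rise was in Potri.010G224200.v3.1, with 9.23 ± 1.86 FPKM on PEG and 4.20 ± 0.867 FPKM on control medium (log2 change 0.97, SE 0.22, limma adjusted p 0.00593). In OE roots 1 of the 17, Potri.006G126800.v3.1, was called higher on PEG, against 1.54% of tested genes, with 525 ± 54.3 FPKM on PEG and 378 ± 10.9 FPKM on control medium (log2 change 0.47, SE 0.10, limma adjusted p 0.0355). That call was lost in 12 of 19 alternative settings, with adjusted p up to 0.223. The interaction called 1 of the 17 higher, Potri.010G129800.v3.1, against 3.5% of tested genes, by 1.26 on the log2 scale (SE 0.30, limma adjusted p 0.0245). The median correlation of the 17 with the mean profile of the 9 members was 0.906, from -0.675 to 0.978, beside 0.168 for all tested genes.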

How the data were processed

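Root RNA of 12 libraries was analysed, grouped by the tissue label of each sample. The deposited values are FPKM, as judged from the values, since the file headers name only the library; reads and fragments cannot be told apart. Bowtie2 2.2.3 and HISAT2 2.1.0 are named without roles in the submitters' processing notes; counting tool, genome build and annotation: not given in the sources used here. Of 369256 values above 0 in 33820 genes, 100% were whole reads within 0.01 read once gene length and library total were solved for; these reads served for depth and limma-voom. Counting errors cover sampling of reads only.

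Tests were two-sided and used limma 3.58.1 in R 4.3.3 with an intensity trend on log2(FPKM + 1). The 4 groups and their 12 libraries entered a single model, which left 8 residual degrees of freedom. Further summaries used Python 3.11.15, numpy 2.4.6, pandas 2.3.3 and scipy 1.17.1. The fit was tested on simulated data. All 9 members are named; other genes were named by pattern likeness or, in the list of 17, as the called gene with the largest rise and fall. Alternatives were 2 scalings, a pseudocount of 0.1, no filter, limma-voom, a replicate block, only the compared libraries, and leaving out each library. Members and lists were chosen with earlier results of these data known. Root and shoot markers were not checked, because the files give no gene names.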

Additional observations from a re-analysis of the deposited data

Results flagged for a closer look

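Potri.010G129800.v3.1, of the list of 17 further identifiers, had a PEG response that differed between the genotypes by the interaction test, 1.26 on the log2 scale, OE minus WT (SE 0.30, limma adjusted p 0.0245). Its log2 change on PEG was -0.41 in OE roots and -1.67 in WT roots. The call was lost without library 1 of OE on control medium (limma adjusted p 0.0509) and without library 1 (0.0729) or 3 (0.0679) of WT on PEG. None of the 9 early flavonoid genes met this test with limma, where 5 had an unadjusted p under 0.05. Limma-voom called 1 of them, against 1797 of all tested genes. The share of all tested genes at that unadjusted rule was not determined. Groups of 3 libraries are too small for a test of single outlying libraries.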

How the results depend on the processing

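For the genotype effect on PEG, 8 or 9 of the 9 genes were called in all 19 alternatives, and for PEG in WT roots 4 to 7. In WT roots it was 4 without library 1 or 3 of WT on PEG. There 5171 and 5385 of all tested genes were called, against 7147 with all libraries. For PEG in OE roots 0 were called in each. The number called for genotype on control medium was 1 with the replicate block and ran from 2 to 7 over the fits that left out 1 library. The number called for the difference of PEG responses was 1 with limma-voom, 1 with the replicate block and 0 to 2 with 1 library left out. Over all tested genes limma-voom called 1797 for this difference. Median-ratio scaling moved the mean CHS sum of OE roots on PEG to 866 FPKM, by more than its small SD.

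Of the log2 changes of the 9 genes, the sign turned for values that were never called. For PEG in OE roots, Potri.003G176800.v3.1 and Potri.001G051500.v3.1 were at 0.048 and 0.034 with median-ratio scaling and at 0.0281 and 0.0132 with upper-quartile scaling. With the replicate block 6 changes in OE roots turned: Potri.014G145100.v3.1 (0.0122), Potri.003G176800.v3.1 (0.2843), Potri.003G176900.v3.1 (0.147), Potri.001G051500.v3.1 (0.2136), Potri.001G051600.v3.1 (0.1422) and Potri.013G073300.v3.1 (0.0905). With 1 library left out, the ranges in OE roots were -0.103 to 0.0757 for Potri.003G176800.v3.1, -0.127 to 0.0708 for Potri.001G051500.v3.1 and -0.2383 to 0.0295 for Potri.013G073300.v3.1. In WT roots Potri.003G176700.v3.1 ran from -0.1114 to 0.3022. Replicate numbers 4 and 5 each occur once, in library 4 of OE on PEG and library 5 of OE on control medium. The replicate block fitted these libraries exactly, so its group comparisons rested on the other libraries. The cause of the turns was not tested.

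Replicate numbers carry no meaning in the labels, so the main model did not pair the libraries. Same-numbered WT libraries had correlations of their deviations from -0.014 to 0.101. Over all same-numbered pairs in different groups the range was -0.233 to 0.263, and over pairs with different numbers -0.319 to 0.338. These values cannot show whether same-numbered libraries shared a batch. With the block, over all genes, 3138 in place of 5080 were called for genotype on control medium, 2174 in place of 3620 for genotype on PEG, 149 in place of 519 for PEG in OE roots and 848 in place of 1873 for the interaction. The 6 OE libraries alone gave 263 for PEG in OE roots. Of the fits without 1 library, the lowest counts were 3118 (library 2 of WT on control medium), 1660 (library 3 of WT on PEG), 242 (library 1 of OE on PEG) and 894 (library 1 of WT on PEG). The genotype calls of Potri.014G145100.v3.1, Potri.001G051600.v3.1 and F3H on control medium and of Potri.003G176700.v3.1 on PEG were lost with the block (limma adjusted p 0.0788, 0.0795, 0.155 and 0.115). With the block F3'H was called for the difference of PEG responses (0.0455). The block comparisons did not draw on library 5 of OE on control medium or library 4 of OE on PEG. They thus differ from the main fit in more than the pairing. With 3 libraries a group, intervals of about 0.5 on the log2 scale on either side limit what can be told apart.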
